A study of Mus musculus with 8 samples.

Results

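Candidate lymphatic endothelial cells of the mouse liver were selected on 6 marker transcripts of that cell type. A cell was a member when at least 2 of Ccl21a, Mmrn1, Prox1, Pdpn, Nts and Tbx1 had 1 or more UMI, a unique molecular identifier that marks 1 captured RNA molecule. The rule gave 52 members among 3192 cells, and 44 of them lay in 1 library, control 4, where they made up 46.8% of 94 cells (Wilson 95% interval 37.0 to 56.8). The other members were 1 cell of control 3, 1 of hfhc 1, 5 of hfhc 2 and 1 of hfhc 3. Not all members fit the name: of the 44, 5 carried sinusoidal markers and 5 others bile duct or mesothelial ones. All 8 members outside control 4 carried bile duct or mesothelial markers too, as described below. The marker values chose the members, so the marker levels below are a description.

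The study profiled liver stromal cells of 8 mice by 10x Genomics single-cell RNA sequencing, with 1 library per mouse. The labels give male C57BL/6 animals from Charles River, 6 to 8 weeks old, kept for 20 to 32 weeks on chow (control, 4 mice) or on an HFHC diet (hfhc, 4 mice). Dead cells were removed, and the sort used antibodies to the leukocyte marker CD45, the endothelial markers CD31 and CD146, and PDPN, so the gate may set which endothelial cells were caught. All members that could be described in depth came from 1 control mouse, and no comparison of diets was possible for them.

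Lymphatic endothelial cells line the vessels that carry interstitial fluid, lipids and immune cells away from a tissue. In the liver these vessels run mainly in the portal tracts, while the sinusoids between hepatocytes are lined by a different, fenestrated and strongly endocytic endothelium. The transcription factor Prox1 sets and maintains lymphatic identity, the receptor Flt4 (VEGFR-3) takes up the growth signal Vegfc, and the chemokine Ccl21 draws dendritic cells and T cells that carry its receptor Ccr7 into the vessels.

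Most lymphatic marker UMIs came from Ccl21a, which has near-identical copies in the mouse genome, and a stretch of their coding sequence is shown because the count of this gene depends on telling them apart. The 870-base Ccl21a transcript (GENCODE vM21, mm10, chr4:42772860-42773993, minus strand) and the Gm21541 transcript (chr4:41903610-41904743, plus strand) differed at 6 positions, which makes them 99.3% identical. Of these, 2 lay in the coding part (T159A and C269T, Ccl21a base first, counted from the 5′ end of the Ccl21a transcript) and 3 in the 3′ UTR. Gm13304 (chr4:42114817-42115917, plus strand) differed at 5 of its 837 bases, and the Ccl21b model, which holds the coding part alone, at 2 of 402. The 61 bases around position 269 of the Ccl21a transcript follow, with the aligned bases of each copy and that position in capitals.
Ccl21a: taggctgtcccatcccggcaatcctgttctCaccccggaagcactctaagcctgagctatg
Gm21541: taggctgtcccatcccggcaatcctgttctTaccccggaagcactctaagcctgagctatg
Gm13304: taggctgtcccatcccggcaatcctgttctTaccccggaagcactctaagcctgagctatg
Ccl21b: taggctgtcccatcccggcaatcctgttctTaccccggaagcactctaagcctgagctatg
Within this window the 3 copies carried the same letters and differed from Ccl21a at the marked base.

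In the 44 members, Ccl21a had 5409 UMIs, Gm21541 had 92, Ccl21c had 70 and Gm13304 had 38, while Ccl21b had 0. How reads shared by the copies were assigned is not given in the sources used here, so the division among these rows is uncertain. The 4 detected rows together held 5609 UMIs in the members and 45 in the sinusoidal cells described below, a ratio of 59.4 of their levels (95% counting interval 44.3 to 81.5), against 59.9 (44.4 to 82.9) for Ccl21a alone.

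The 250 bases before the RefSeq start of Ccl21a (GRCm38.p6, chr4:42773992-42774241, minus strand) are shown because this gene supplied the bulk of the marker signal. Both strands were searched for exact letters only, AACAAT for SOX factors, CAGGAA for ETS factors and TATAAA for the TATA box, and matches are in capitals. Shorter or variant forms of these motifs were not searched for.
Ccl21a promoter: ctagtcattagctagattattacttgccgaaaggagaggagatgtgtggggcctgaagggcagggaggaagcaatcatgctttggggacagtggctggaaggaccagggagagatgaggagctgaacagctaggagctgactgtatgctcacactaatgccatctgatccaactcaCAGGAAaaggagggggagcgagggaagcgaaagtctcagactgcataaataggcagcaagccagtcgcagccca
The window held 1 match to CAGGAA, a motif found in 25.7% of 32851 RefSeq promoter windows of this length. With a single match, no motifs overlapped. AACAAT and TATAAA, found in 9.42% and 12.4% of windows, were not among its letters.

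The libraries differed in ways that touch these cells. Kept libraries held 47 to 875 cells, and control 4 had 94 cells with 257355 UMIs. Control 4 went against its label of a male mouse: Xist, the transcript that coats the inactive X chromosome of females, was found in 67 of 94 cells (71.3%) there and in 0 cells of the other libraries, and no transcript of the Y-linked genes checked was found in control 4. Xist was as high in the members (179 UMIs, 37 of 44 cells) as in the sinusoidal cells (89 UMIs, 27 of 35 cells) of that library, a ratio of 0.96 (0.74 to 1.25). Libraries also shared cell barcodes, and each barcode was kept where it had most UMIs, which removed no cell of control 4. Of its 44 members, 2 had a barcode that was also seen in another library. The share of members and the library, with whatever sets it apart, cannot be told apart.

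The members of control 4 were not uniform. Of the 44, 5 carried at least 3 of the 6 sinusoidal markers Stab2, Clec4g, Oit3, Gpr182, Fcgr2b and Dnase1l3, and 5 others carried at least 4 of 19 bile duct or mesothelial markers, such as the keratins Krt8, Krt18 and Krt19 and the mesothelial surface protein Msln. Gpm6a, a gene of the mesothelial list, was left out of the 19. These groups were set after their values were seen. The 5 with sinusoidal markers had 1 to 4 UMIs of Ccl21a each, the range found in sinusoidal cells of the library (0 to 4), and 9 to 15 of 25 pan-endothelial genes. The 5 with bile duct or mesothelial markers had 1 to 7 UMIs of Ccl21a, 0 to 3 pan-endothelial genes and no Prox1, Nts or Tbx1. The other 34 members had fewer of both kinds of marker, which the split itself fixed, and they carried 3 to 15 pan-endothelial genes with a median of 9. Not each of the 34 was clearly lymphatic: 8 of them had no more Ccl21a than the highest sinusoidal cell, and 5 of these 8 had no Lyve1 either. Values for the 34 are given beside those for the 44.

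**Figure D1:**
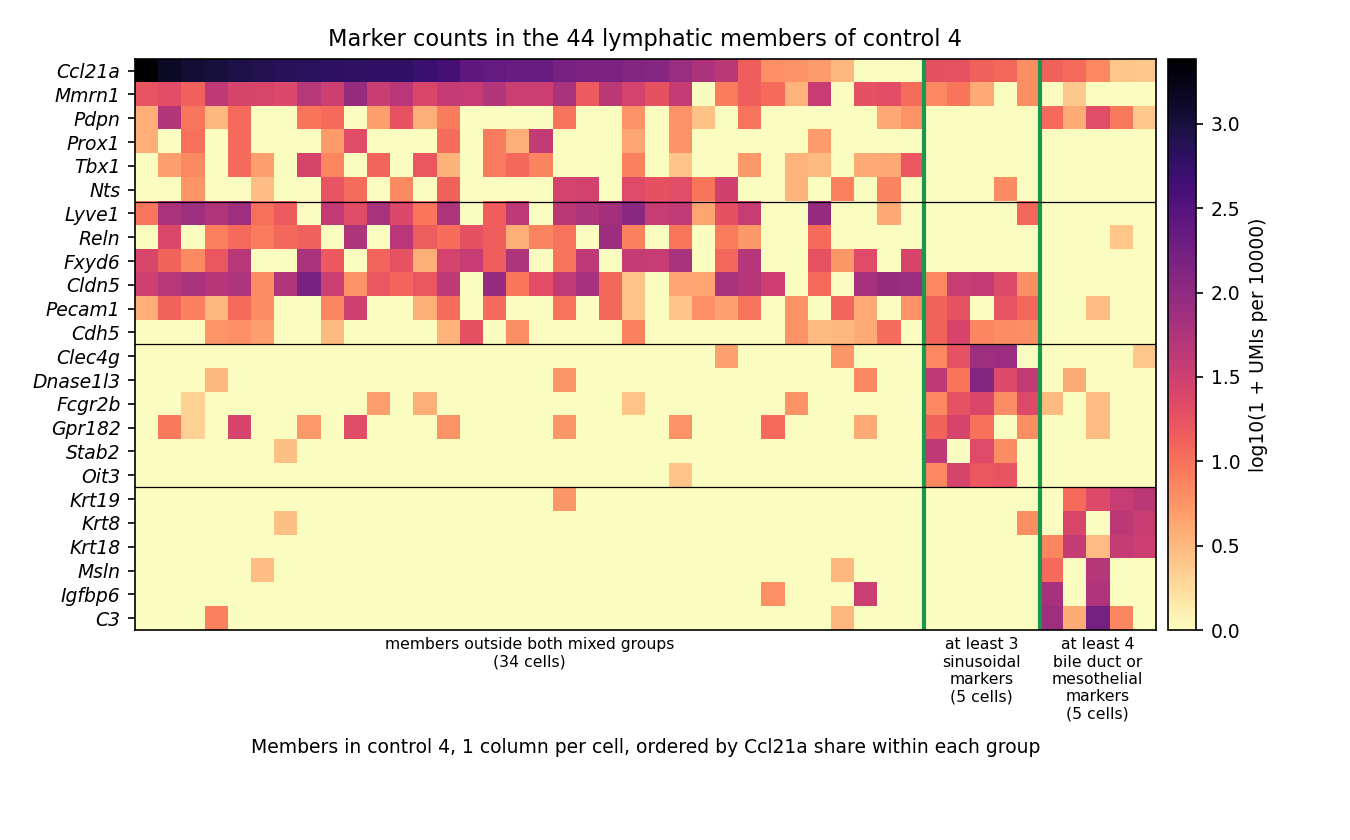
Each column is 1 of the 44 members of control 4 and each row 1 gene, coloured by log10 of 1 plus UMIs per 10000; horizontal lines separate the 6 markers of the rule, other endothelial genes, sinusoidal markers and bile duct or mesothelial genes. Most of the 34 cells at the left carry Mmrn1, Ccl21a and Lyve1, and the 5 and 5 cells right of the vertical lines carry sinusoidal markers, or some of the bile duct and mesothelial genes, with little Ccl21a.

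The number of markers per member was 2 in 15 cells, 3 in 7, 4 in 16, 5 in 1 and 6 in 5. Just inside the rule, among the 15 cells with 2 markers, 14 had Ccl21a, 9 had Mmrn1 and 0 had Prox1, and 5 and 4 of them belonged to the groups with sinusoidal and with bile duct or mesothelial markers. Just outside it, 33 cells of control 4 had 1 marker, which was Ccl21a in 25 of them at no more than 4 UMIs, and 21 of the 33 carried at least 3 sinusoidal markers. Cells on either side of the threshold therefore overlapped in their Ccl21a counts and in their sinusoidal markers.

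Among the 34 members, Ccl21a ranged from 0 over a median of 209 to 2433 UMIs per 10000 of the cell. The 3 members with no Ccl21a UMI had 2 or 6 UMIs of Mmrn1 and 16 to 27 of the junction gene Cldn5. Mmrn1 is itself a marker of the rule. Mmrn1, a secreted multimerin of endothelial cells, was the marker found most often, in 32 of the 34 cells, with a median of 24.8 and a maximum of 85.3 UMIs per 10000. Tbx1, a T-box transcription factor needed for lymphatic development, was found in 20 cells, Pdpn, the mucin-type surface protein also stained for the sort, in 18, and Nts, which encodes the peptide neurotensin, in 16. Prox1 was found in 12 cells with 38 UMIs in all and up to 8 in a cell. Detection of these lower transcripts was limited by depth: with each cell thinned to 1000 UMIs, Prox1 was found in 7 of 31 cells, Tbx1 in 12 and Mmrn1 in 27.

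The members were compared with 35 cells of the same library that had at least 2 of the 6 sinusoidal markers and fewer than 2 lymphatic ones, which the rule fixed. UMIs were summed over each class (156213 in the 44 members, 116165 in the 34, 74433 in the sinusoidal cells) and set per 1000000 UMIs of the class, as CPM. Of the 35 sinusoidal cells, 1 carried 8 of 12 T and NK markers and 2 pan-endothelial genes with 4511 UMIs, while the others carried at most 1 such marker. This cell was kept, and where leaving it out moved a named ratio by over 1.5 times the ratio without it is given. The median depth was 3320.5 UMIs per member and 1933 per sinusoidal cell, and at 1000 UMIs per cell the median number of genes was 588 and 580.5. With 1 library there was no replicate, so no test was made and every interval covers counting error only. A sum of 0 allows up to 3 UMIs, which is 19.2 CPM in the 44 members, 25.8 in the 34 and 40.3 in the sinusoidal cells.

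Genes with at least 20 UMIs over both classes are called tested, in the sense that their ratio was compared with 3-fold. Of 2055 such genes, 294 (14.3%) were at least 3-fold higher in the 44 members and 175 (8.52%) at least 3-fold lower. In the 34 members, 231 of 1704 genes (13.6%) were higher and 172 (10.1%) lower. Of the 294 genes, 158 had so few sinusoidal UMIs that any gene with their count there and at least 20 UMIs in all is past 3-fold, so the filter fixed their call, and the same held for 63 of the 175. Without the sinusoidal cell that carried T and NK markers, 277 were higher and 188 lower. Of the genes past 3-fold in the 44, 201 higher and 142 lower ones were also past it in the 34. The median log2 ratio of all tested genes was 0.07 in the 44 and 0.03 in the 34, and scaling by TMM factors would raise every log2 ratio by 0.26.

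**Figure D2:**
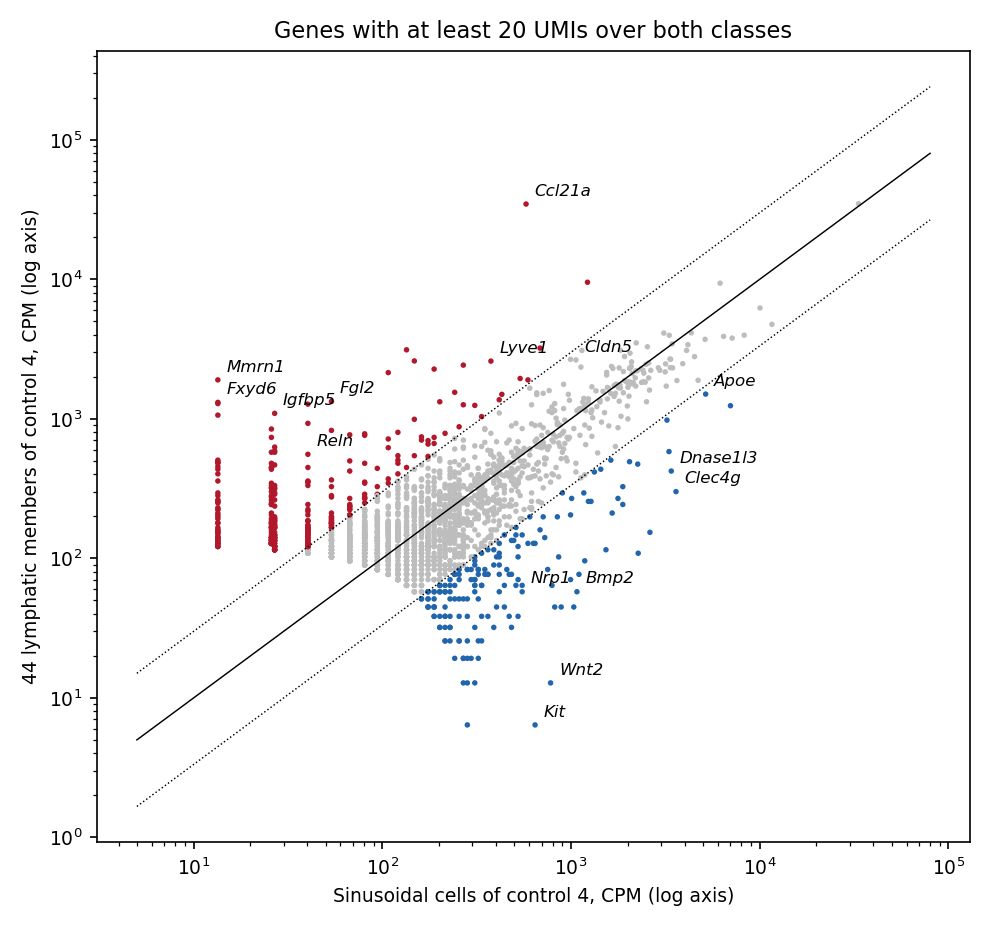
Each point is 1 of the 2055 genes, with its level in the 35 sinusoidal cells (x) and the 44 members (y) in CPM on log axes. The solid line marks equal levels and the dotted lines 3-fold. Sums of 0 stand at 3 UMIs (19.2 CPM) on y. On x they stand at 25.8 CPM, below the 40.3 CPM of 3 UMIs, so these points lie further left than their ratios place them. The 294 red genes lie above the upper dotted line and the 175 blue genes below the lower one, with Ccl21a far above all others at its level.

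The levels of the rule's own markers follow as a description. Ccl21a stood at 34626 CPM in the 44 members, 46305 in the 34 and 578 in the sinusoidal cells. It had a UMI in 41 of 44 members and also in 20 of 35 sinusoidal cells, and at 1000 UMIs per cell in 29 of 41 (70.7%) and 16 of 30 (53.3%). Detection of Ccl21a in a cell of this library was therefore a poor mark of the class, while its amount separated the sums. In sinusoidal cells of 4 other libraries Ccl21a stood between 0 and 0.979 CPM, and whether free RNA gave the counts in sinusoidal cells of control 4 was not tested. Mmrn1 had 297 UMIs in the members and 1 in the sinusoidal cells, Pdpn 75 and 1, and Nts 77 and 1. Prox1 (38 UMIs) and Tbx1 (50 UMIs) had 0 UMIs in the sinusoidal cells, which makes them at least 6.04-fold and at least 7.94-fold higher in the members, with 3 UMIs taken as the limit of each 0. The lower ends of their 95% counting intervals were 4.67 and 6.22.

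Surface and secreted genes of lymphatic vessels that the rule did not use stood above the sinusoidal cells as a group. This list, like the others below, was chosen with earlier results of these data known. Its counts are therefore a description and no independent support for the name of the cells. Of 34 genes in this list, 20 were tested, 14 were at least 3-fold higher and 1 was lower, the mannose receptor Mrc1, with a median log2 ratio of 2.47 against 0.07 over all genes. The shares over all genes were 14.3% higher and 8.52% lower, and 5 of the 14 were fixed by the filter. In the 34 members, 15 of 20 were higher and 1 lower, with a median of 2.83. Lyve1, a hyaluronan receptor, stood at 2593 CPM in the 44 members (27 cells) and 376 in the sinusoidal cells (12 of 35 cells), a ratio of 6.89 (4.70 to 10.5), and of 9.22 in the 34. It also stood above the sinusoidal cells of each of 5 libraries, whose levels ran from 73.4 to 376. Lyve1 ranged from 0 to 109 UMIs per 10000 among the 34 members and was found in 26 of them.

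Fxyd6, a regulator of the sodium pump, had 205 UMIs in 25 members and 1 UMI in the sinusoidal cells, a ratio of 97.7 (17.3 to 3877). Reln, a secreted glycoprotein of the extracellular matrix, stood at 557 CPM against 40.3, a ratio of 13.8 (4.57 to 68.3), and was found in 22 of 44 members and 3 of 35 sinusoidal cells. The tetraspanin Cd9 stood at 3214 against 685, a ratio of 4.69 (3.51 to 6.39). Ecscr, an endothelial surface protein encoded on chromosome 18, was found in all of the 34 members, with 1.69 to 51.7 UMIs per 10000, and stood 6.58-fold higher in the 44 (3.90 to 12.0). Timp3, an inhibitor of matrix proteases, was nearer to the sinusoidal cells, with a ratio of 1.53 (1.14 to 2.09).

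The 15 genes with the largest ratios outside the rule were Fxyd6, S100a6, Lcn2, Igfbp5, Stmn2, Ahnak, Pard6g, Fgl2, Cp, Tppp3, Cavin3, Pcp4l1, Cd24a, Tgfbi and Ifi27l2a. Their ratios ran from 20.0 to 97.7, that of Ifi27l2a being 49.98 without the sinusoidal cell with T and NK markers. Under the other settings none fell below 5.52. Fxyd6, S100a6, Lcn2, Stmn2, Ahnak, Pard6g, Pcp4l1 and Tgfbi had 1 sinusoidal UMI, and Igfbp5, Cp and Cd24a had 2. With so few UMIs there, the filter fixed their call of at least 3-fold. Fgl2, a fibrinogen-like secreted protein, had 208 UMIs in 31 members and 4 UMIs in the sinusoidal cells, a ratio of 24.8 (9.53 to 91.8). Lcn2, the iron-siderophore carrier lipocalin 2, stood at 1063 CPM in the members and 13.4 in the sinusoidal cells, its 1 UMI there being in the cell with T and NK markers, without which it was at least 24.8-fold higher, and Cp, the copper-carrying ferroxidase ceruloplasmin, at 627 and 26.9. Tppp3, a tubulin-binding protein, stood at 3124 and 134, and Stmn2, a microtubule regulator best known from neurons, at 506 and 13.4. Against sinusoidal cells of 5 libraries, 13 of the 15 lay above the whole range. The others were S100a6, at 1287 against 1.96 to 2803, and Igfbp5, at 1095 against 3.67 to 2081. Both upper ends came from control 1, whose sinusoidal cells also held 7124 CPM of fibroblast and stellate markers against 309 in control 4, and the part of these cells in the value was not tested.

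Chemokines were few. Of 25 chemokine and chemokine receptor genes, 11 had 0 UMIs in both classes, among them Ccl19, the other ligand of Ccr7, and Ccl2, Ccl5, Cxcl1 and Cxcl13. Ccl21a chose the cells and Ccl21c is a row of a copy, and both were higher. Of the other 3 tested, 1 was at least 3-fold higher (Il7, a cytokine placed in this list) and 1 lower (Cxcl16). In the 34 members 2 of 2 were higher (Il7 and Ackr3). All tested genes had shares of 14.3% higher and 8.52% lower (13.6% and 10.1% in the 34). So few genes of the list were tested that its counts are not read against these shares. Il7, a survival cytokine for lymphocytes, had 43 UMIs in 15 members and 0 in the sinusoidal cells, at least 6.83-fold higher when 3 UMIs are taken as the limit of that 0, with 5.32 as the lower end of its counting interval. Its call was fixed by the filter. Ackr3, a scavenging receptor for Cxcl12 and adrenomedullin, had 42 UMIs in 15 members and 7 in 4 sinusoidal cells, a ratio of 2.86 (1.27 to 7.54), and of 3.85 (1.71 to 10.1) in the 34. Ccl21a alone held 5409 of the 5602 UMIs of this list in the members.

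Of 20 transcription factors in the list, 10 were tested, 2 of them the rule's Prox1 and Tbx1. Of the other 8, 2 were at least 3-fold higher and 1 lower in the 44 and in the 34, with a median log2 ratio of 0.21 (0.41 in the 34). The shares over all genes were 14.3% and 8.52%, and both higher calls were fixed by the filter. The higher ones were Klf4, a flow-responsive zinc finger factor (37 UMIs against 2, ratio 8.81, 2.27 to 75.5), and the homeobox gene Meox1 (26 against 0, at least 4.13-fold, lower end of the interval 3.13), both named after their values were seen. Sox18 and Nr2f2, which act upstream of Prox1 in development, had ratios of 1.26 (0.71 to 2.35) and 0.80 (0.50 to 1.29), so neither differed beyond counting error. Maf stood lower, at 474 CPM against 2257, a ratio of 0.21 (0.16 to 0.28).

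Receptors of the VEGF and angiopoietin pathways stood mostly lower than in sinusoidal cells. Of 22 genes, 11 were tested, 0 were at least 3-fold higher and 5 were lower, against 8.52% lower over all genes (Ptprb, Flt1, Nrp1, Kdr and Tek, of which Flt1 was named after its values were seen), with a median log2 ratio of -1.47 (-1.38 in the 34, where Ackr3 passed 3-fold). The filter fixed 1 of the 5 lower calls. Flt4, the receptor that marks lymphatic vessels in many tissues, had 37 UMIs in 19 of 44 members and 32 UMIs in 14 of 35 sinusoidal cells. Its ratio was 0.55 (0.33 to 0.91), and 0.66 (0.39 to 1.11) in the 34, so it was not higher in the members. Kdr (VEGFR-2) stood at 269 CPM against 1773, a ratio of 0.15 (0.10 to 0.22), and Nrp1, a co-receptor of VEGF and semaphorins, at 57.6 against 551. Tek, the angiopoietin receptor, stood at 102 against 524, and Ptprb, the phosphatase that restrains it, at 115 against 1532. Vegfc and the genes of its processing, Ccbe1 and Adamts3, had 0 UMIs in both classes.

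**Figure D3:**
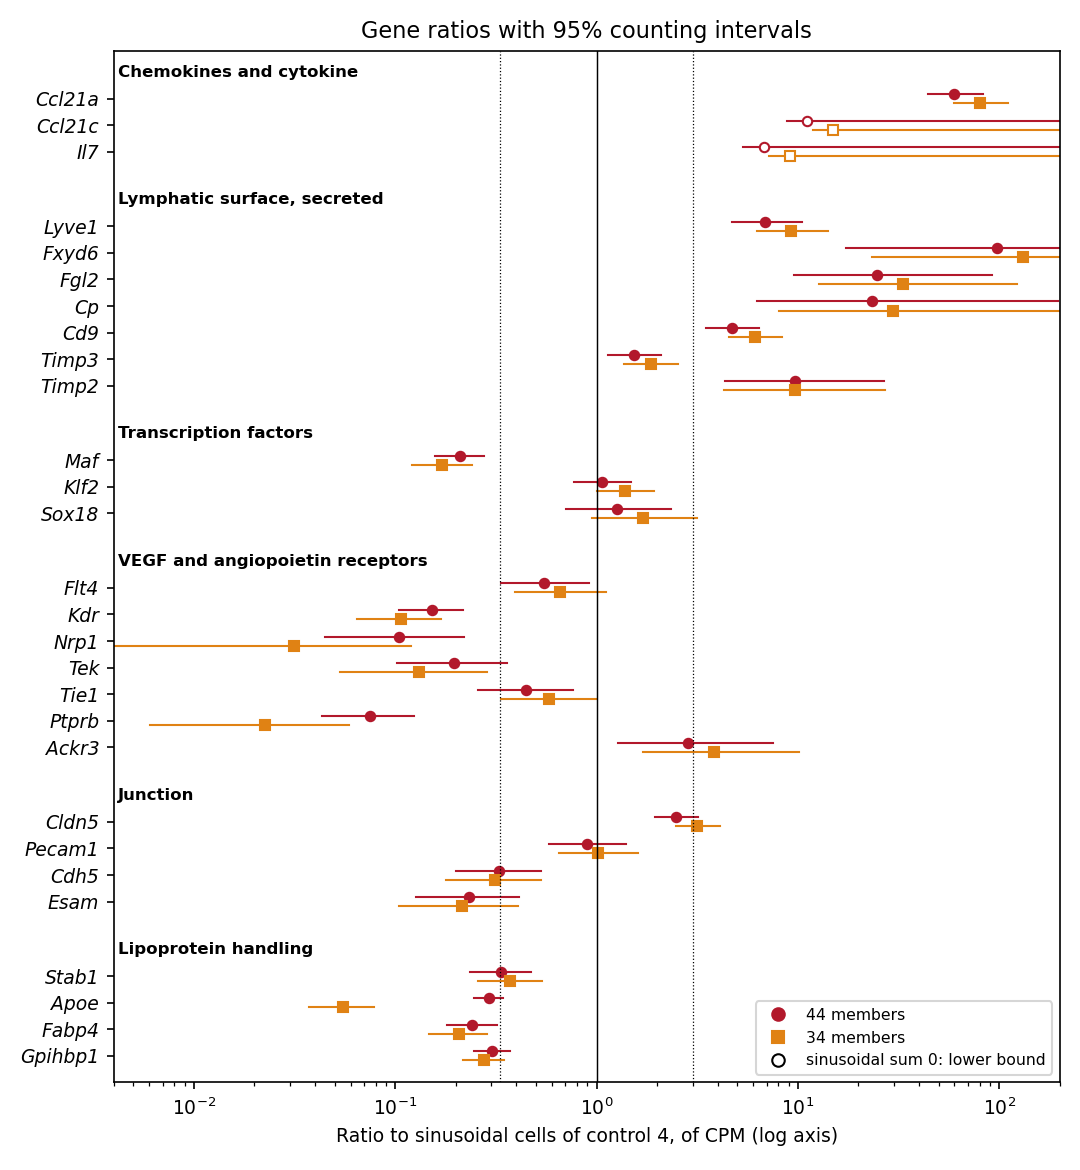
Ratios of CPM in the 44 members (circles) and the 34 members (squares) to the sinusoidal cells of control 4, on a log axis, with 95% counting intervals as lines; open symbols are lower bounds and lines that reach the frame go on beyond it. Ccl21a, Ccl21c, Il7, Fxyd6, Fgl2 and Cp lie right of the 3-fold line, Flt4 lies left of 1, and Apoe moves from 0.29 to 0.05 between the 44 and the 34.

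Of 13 junction genes tested, 1 was at least 3-fold higher (Nectin2) and 4 were lower (Jam2, Tjp1, Esam and Cdh5), and of 9 adhesion genes 1 was higher (Cd200) and 2 lower (Mrc1 and Jam2), of which Nectin2, Jam2, Tjp1 and Cd200 were named after their values were seen. The shares over all genes were 14.3% higher and 8.52% lower, and the single higher gene of each list lies near the first. The filter fixed 1 lower call of each list. In the 34, the junction genes had 2 higher and 4 lower with a median log2 ratio of 0.03 (-0.16 in the 44), and the adhesion genes 1 higher and 2 lower. Cldn5, the main claudin of endothelial tight junctions, stood at 2644 CPM against 1061, a ratio of 2.49 (1.95 to 3.21), and 3.17 (2.49 to 4.09) in the 34. Sinusoidal cells of control 3 had a higher Cldn5 level, and against them the ratio was 1.31. Cdh5, the cadherin of endothelial adherens junctions, went the other way at 198 against 605, a ratio of 0.33 (0.20 to 0.53). Pecam1, which encodes the CD31 used in the sort, differed by less than counting error, with a ratio of 0.90 (0.58 to 1.40) that became 1.07 with TMM scaling. Mrc1 stood at 96.0 against 1182.

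Lipid handling was of interest because the series concerns oxidized low-density lipoprotein. Of 28 receptor and lipid-handling genes, 10 were tested, with 1 at least 3-fold higher (Nr1h3, whose call the filter fixed, with 2.35 as the lower end of its counting interval) and 5 lower (Cd36, Fabp4, Fabp5, Apoe and Gpihbp1), of which Nr1h3 and Cd36 were named after their values were seen. The median log2 ratio was -1.65, and in the 34 members 0 of 7 were higher and 5 lower, with a median of -2.28. Over all genes the shares were 14.3% higher and 8.52% lower (13.6% and 10.1% in the 34). The single higher gene lies below the first of these. Olr1, the lectin-like receptor for oxidized low-density lipoprotein, had 0 UMIs in both classes. Cd36, a scavenger receptor for oxidized lipoprotein and fatty acids, had 10 UMIs in the members and 25 in the sinusoidal cells, a ratio of 0.19 (0.08 to 0.41). Stab1, another scavenger receptor, stood at 378 against 1129, a ratio of 0.33 (0.24 to 0.47) that was 0.37 in the 34. Apoe stood at 1504 CPM in the 44, 284 in the 34 and 5172 in the sinusoidal cells, so most of its UMIs in the members came from the 10 cells of the 2 mixed groups. Fabp4, a fatty acid carrier, had 77 UMIs in only 12 members and 152 in 22 sinusoidal cells.

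Genes of sinusoidal endothelium outside the rule stood lower in the members. Of 26 tested, 18 were at least 3-fold lower and 1 was higher, Lyve1, with a median log2 ratio of -2.51 (-2.72 in the 34, with 19 lower). Over all genes 8.52% were lower and 14.3% higher, and the filter fixed 6 of the 18 lower calls. The 10 genes with the smallest ratios were Kit, Wnt2, Exoc3l2, Col13a1, Gatm, Sgpp1, Mt1, Clec1b, Bmp2 and Cd38, and under every other setting their ratios stayed at or below 0.247. Of these 10, all but Mt1 and Bmp2 had 1 to 7 UMIs in the members, so few that the filter fixed their call. Wnt2, a ligand that sinusoidal cells near the central vein supply to hepatocytes, had 2 UMIs in the members and 58 in the sinusoidal cells. Kit, the stem cell factor receptor, had 1 and 48. Bmp2, the signal that makes hepatocytes produce hepcidin, had 9 UMIs in the members, 0 of them in the 34, and 80 in the sinusoidal cells. Each of these 10 lay below the lowest of the 5 sinusoidal levels.

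**Figure D4:**
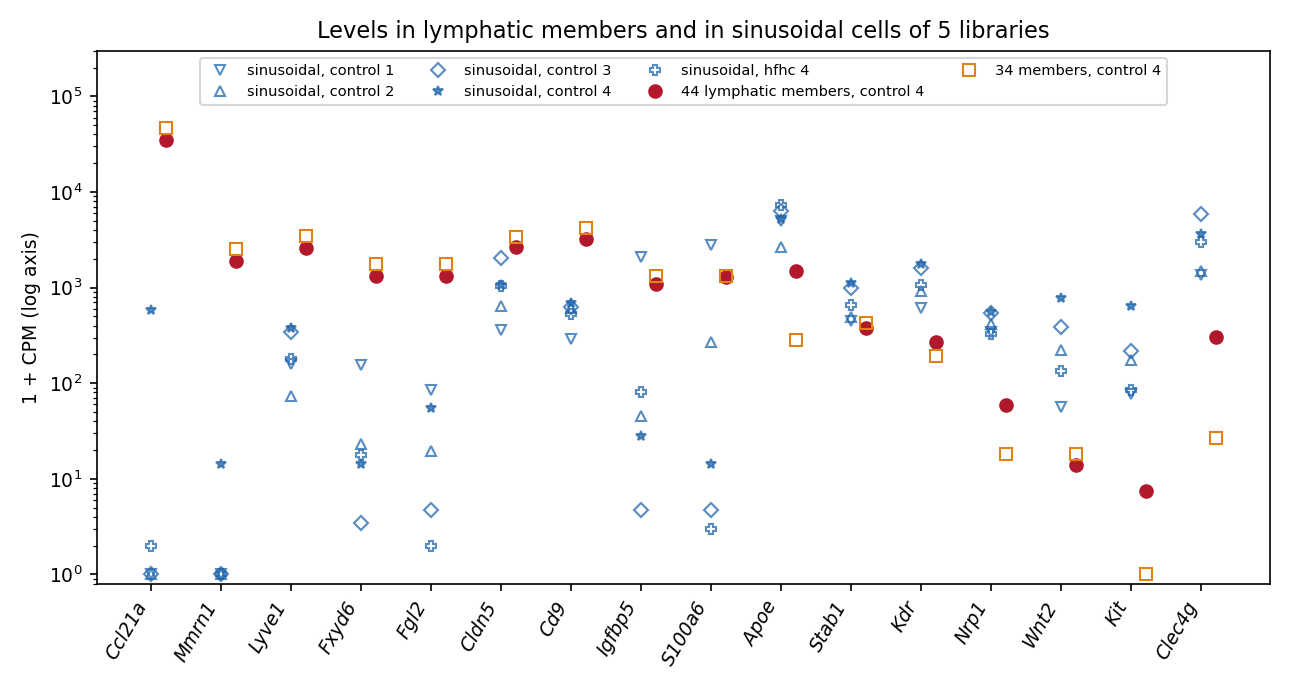
Levels as 1 plus CPM (log axis) in the 44 members, the 34 members and the sinusoidal cells of the 5 libraries with at least 30 of them. Ccl21a, Mmrn1, Lyve1, Fxyd6, Fgl2, Cldn5 and Cd9 of the members lie above all 5 sinusoidal sets, S100a6 and Igfbp5 lie below control 1, and Apoe, Stab1, Kdr, Nrp1, Wnt2, Kit and Clec4g lie below all 5.

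General endothelial genes were lower on balance too, against the sinusoidal cells of control 4. Of 18 tested, 7 were at least 3-fold lower and 1 higher, Ecscr, with a median log2 ratio of -1.08 (-0.79 in the 34, with 7 lower and 2 higher). For each list of this paragraph, the shares over all genes were 8.52% lower and 14.3% higher (10.1% and 13.6% in the 34). The single higher gene here lies below the second share, and the filter fixed 1 of the 7 lower calls. Summed, the general endothelial list stood at 9455 CPM in the 44, 11200 in the 34 and 13435 in those sinusoidal cells. In sinusoidal cells of control 1, control 2, control 3 and hfhc 4 it stood at 5022, 8619, 13703 and 10794. Those of control 1 also held 7124 CPM of fibroblast and stellate markers, against 309 in control 4. Those of control 2 held 9441 CPM of neutrophil markers, against 0 in control 4. The part of other cell types in these sums was not tested. Eng, a co-receptor for the BMP family, stood at 506 against 1626, while Ramp2, the partner of the adrenomedullin receptor, differed little at 1018 against 1303, a ratio of 0.78 (0.60 to 1.02). Cd34 and Erg had 0 UMIs in both classes. Of 6 collecting vessel and valve genes tested, 2 were lower (Nrp1 and Emilin1) and 1 was higher, Clu, whose 355 UMIs in the 44 fell to 13 in the 34. In the 34, 0 of the 6 were higher and 2 lower, with a median log2 ratio of -0.84 (-0.25 in the 44). The connexin Gja1 had a ratio of 1.24 (0.73 to 2.19). Of 7 vascular endothelial markers tested, 4 were lower and 2 were higher, the Notch target Hey1 (22 UMIs against 0, lower end of the interval 2.61) and the Notch ligand Dll4 (22 against 1, ratio 10.5, 1.69 to 433). Both passed the filter only through the members, which fixed their call, and the filter also fixed 1 of the 4 lower calls. In the 34 the counts were again 4 lower and 2 higher, with a median log2 ratio of -1.996 (-1.989 in the 44).

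Of 15 matrix genes tested, 7 were at least 3-fold higher and 5 lower in the 44 and in the 34, against 14.3% and 8.52% over all genes in the 44, and the filter fixed 4 of the 7 higher calls. The median log2 ratio was 0.62 (0.89 in the 34). Timp2 stood at 781 CPM against 80.6, a ratio of 9.69 (4.33 to 26.9), and Ltbp4, which anchors latent TGF-beta to the matrix, at 698 against 175. Igfbp7 stood at 1242 against 7000 and Igfbp4 at 416 against 1330. None of 9 antigen presentation genes tested was past 3-fold in the 44, 1 was lower in the 34 (median log2 ratio -0.76 and -0.91), and all 9 ratios lay below 1, although that of Psmb8 became 1.18 with TMM scaling. B2m, the light chain of class I molecules, had 0.48 (0.43 to 0.54) and H2-K1 had 0.49 (0.38 to 0.62). Of 8 interferon response genes, 1 was past 3-fold in the 44 and in the 34, near the share over all genes, with a median log2 ratio of 0.03 and 0.20. It was Ifi27l2a, at 2145 against 107 CPM.

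Immediate early and heat shock genes, which can respond to tissue digestion, stood higher in the members: 10 of 15 were past 3-fold, 0 were lower, and the median log2 ratio was 1.86 (9 of 15 and 2.09 in the 34), against 14.3% higher over all genes (13.6% in the 34). Jun stood at 992 CPM against 148, a ratio of 6.71 that was 13.9 without the sinusoidal cell with T and NK markers, and Fos at 762 against 80.6. These counts were uneven among the 34 members, where Fos was found in 11 and Jun in 16, with up to 104 and 205 UMIs per 10000. The Fos level of the 44 lay within the range of the 5 sinusoidal sets (18.3 to 770) and that of the 34 above it, at 809. Jun, Hspb1, Hspa8 and Dusp1 lay above the range in the 44 and in the 34, and Junb in the 44 only. The part of cell handling was not tested.

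Transcripts of other cell types were unevenly spread. All 6 cholangiocyte markers tested were at least 3-fold higher in the 44, against 14.3% over all genes, and the filter fixed 4 of the 6 calls. Their 12-gene list summed to 3585 CPM against 148 in the sinusoidal cells. In the 5 cells with bile duct or mesothelial markers alone it summed to 18110, with 546 of the list's 560 UMIs. In the 34 members 0 of these 6 genes were tested, and Krt8 had 1 UMI and Krt18 had 0. The split on these markers fixed their fall. Gpm6a, a neuronal membrane glycoprotein that also marks mesothelium, was left out of the 19 markers of the split. It had 77 UMIs in 21 of the 34 members and a ratio of 6.17 (2.98 to 14.8) there. Since its counts did not set the split, its level is not set against that of the keratins. Neutrophil markers were at 0 in both classes, 3 of 13 Kupffer and macrophage markers were above 0 in the members with 9 UMIs in all, and 1 of 12 T and NK markers with 1 UMI. In the sinusoidal cells 8 of the 12 T and NK markers were above 0, with 29 UMIs.

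The 8 members outside control 4 did not look like those 34 cells. Each carried 9 to 12 of 12 cholangiocyte markers and 1 to 4 of 25 pan-endothelial genes, had no Mmrn1 or Nts and at most 1 UMI of Ccl21a, and entered the rule mostly through Prox1 with Pdpn. Of these, the 5 of hfhc 2 and the 1 of hfhc 1 had barcodes also seen in another library. By their genes they are better called keratin-positive cells, and no lymphatic endothelial cell beyond control 4 was described from them. In libraries with 0 members, the number of cells allowed a share of up to 5.45% in control 1, 0.343% in control 2 and 0.487% in hfhc 4. Single markers did occur elsewhere: Prox1 in 73 cells outside control 4, of which 50 carried at least 8 of 16 hepatocyte markers, and Pdpn in 62, of which 57 carried at least 4 bile duct or mesothelial markers.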

How the data were processed

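Single-cell RNA libraries of 8 mice were deposited as 1 matrix of raw UMI counts for 31053 genes and 3416 cells. The submitters' processing notes name Cell Ranger 3.0.1, Seurat and the mm10 build. The counts per gene and cell are as the authors deposited them, with no normalization. The counting of multi-mapping reads, the annotation release, the sort gates and any doublet removal are each not given in the sources used here. No doublet caller was run, and members with markers of another cell type are given apart.

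A barcode seen in several libraries was assigned to the one where it had the highest UMI total, leaving 3192 cells. Members and sinusoidal cells were taken by marker counts. UMIs were summed per class and compared per 1000000 UMIs (CPM), with exact conditional 95% intervals and no test, since 1 library held the members. A gene was tested when it had at least 20 UMIs over both classes, meaning that its ratio was compared with 3-fold. Intervals and limits of 0 cover counting error only. Shares were also computed after thinning to 1000 UMIs per cell, leaving out 3 members and 5 sinusoidal cells.

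Named genes were the markers of the rule, the 15 largest and 10 smallest ratios (at least 20 UMIs and 10 cells in the higher class, without sex-linked, mitochondrial, ribosomal, immunoglobulin, haemoglobin and predicted genes), up to 6 genes of each list with most UMIs, genes of a list at 0 in both classes, and cell type markers. The members and lists were chosen with earlier results of these data known. Analyses used Python 3.11.15 with scipy 1.17.1, and edgeR 4.0.16 in R 4.3.3 for TMM factors alone, and the code was tested on simulated data. Gene positions and transcripts came from GENCODE vM21 and promoters from RefSeq. Of 2055 tested genes, 2043 were matched to GENCODE. Ccl21c was not matched.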

Additional observations from a re-analysis of the deposited data

Results flagged for a closer look

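Of 14 measures checked over the 4 libraries of a diet group, 9 had a library far from the others, where chance gives about 1 in 20 groups. Most of these measures are the rule's own markers and rest on the same cells of control 4, so they are not independent and their number is not read against that rate. Control 4 stood apart from the other control libraries in 7 of them. There, 46.8% of cells were members by the rule, those with markers of other cell types included. Xist was found in 71.3% of cells, Ccl21a in 70.2%, Mmrn1 in 43.6%, Prox1 in 12.8%, Nts in 19.1% and Tbx1 in 21.3%. The nearest other control library had 0.174% members, 0% with Xist and 2.17% with Prox1.

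Among the HFHC libraries, hfhc 1 stood apart with 2.13% of cells with Ccl21a, which is 1 cell with 1 UMI. In hfhc 4, 0.812% of cells had Nts, against 0% in the other HFHC libraries. Outside control 4, Nts was found in 10 cells with up to 14 UMIs, all 10 with Pecam1 and at least 8 pan-endothelial genes, 1 with Lyve1 and 0 a member.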

How the results depend on the processing

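The number of members in control 4 was 44. It became 77 with at least 1 marker, 29 with at least 3 markers and 29 of 80 cells thinned to 1000 UMIs, and it was 30 without Ccl21a. The counts of genes at least 3-fold higher and lower, 294 and 175, became 516 and 442 with at least 10 UMIs, 94 and 55 with at least 50 UMIs, and 475 and 315 at 2-fold. Against sinusoidal cells of hfhc 4 they were 495 and 667, and against those of control 3, 794 were lower. With TMM scaling they were 356 and 131, and with the 34 members 231 and 172. Over 120 named genes and 11 alternatives, 1119 values stayed near their main value, 186 moved and 15 changed direction. In the 34 members the direction changed for Tm4sf4, Alb and Spp1 (each 0.427), Clu (0.595), Krt19 (0.641), Krt7 and Krt8 (each 0.214), Krt18 (0.961) and Ttr (0.128). With members of at least 3 markers it changed for Krt7 (0.468), Msln (0.702) and Ttr (0.982), and with 2 of the 5 markers other than Ccl21a for Krt7 (0.680), Msln (0.680) and Ttr (0.952). Each of these settings left out most or all of the cells with bile duct or mesothelial markers.

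No paired analysis was possible because the members lay in 1 library and no test between groups was made. The alternatives with the 34 members and without the sinusoidal cell that carried T and NK markers were chosen after seeing the data. With 44 cells of 1 animal, the spread between animals is unknown, and Prox1, Tbx1 and similar transcripts were too sparse for a share of cells to be read as a share of expressing cells.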

Other observations

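Besides members and sinusoidal cells, control 4 held 15 cells of neither class. Of these, 1 carried 8 of 12 T and NK markers, with 4486 UMIs. A further 2 carried 12 of 25 pan-endothelial genes with 0 of the 6 sinusoidal markers, 2 UMIs of Ccl21a each and no Mmrn1, and 1 of them had 74 UMIs of Cldn5, above the 54 of the highest member. The 15 cells are given as values, and no class was named from them.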
